A study of Mus musculus with 69 samples.

Results

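Trophoblast-associated genes were examined here as a set of 9 members, the transcription factor genes Cdx2, Gata3, Tfap2c, Tead4 and Ascl2 and the keratin genes Krt8, Krt18, Krt7 and Krt19. The members were chosen by name, and all 9 had a row among the 16263 genes of the count table. The data came from mouse embryonic stem cells (ESCs) of the line J1, strain 129S4/SvJae, in which lysine 27 of histone variant H3.3 was replaced by arginine (H3.3K27R) by editing both genes that encode H3.3, H3f3a and H3f3b, with CRISPR-Cas9. The groups were unedited WT cells and the edited clones Mut18 and Mut43, each mutant line being 1 clone, with 2 mRNA-seq and 2 ATAC-seq libraries per line, and no group was treated or differentiated. All lines were grown on feeder cells and passaged without them before harvest. The study made these cells to ask what H3K27 acetylation, a histone mark of active enhancers, does for transcription.

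The trophoblast is the outer lineage of the early embryo, from which the placenta is built, while ESCs correspond to the inner cells of the blastocyst. In outer cells low Hippo signalling lets YAP and TAZ bind TEAD4, which together with GATA3 turns on Cdx2, and CDX2 opposes the ESC factor OCT4. TFAP2C works beside these factors, and ASCL2 acts later in the placenta. Keratin filaments are built from pairs of a type II keratin (KRT8, KRT7) and a type I keratin (KRT18, KRT19), and they mark the first epithelium of the embryo. ESCs are known to hold most of these genes at a low level, with KRT8 and KRT18 present in part of the cells.

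The mRNA-seq libraries were nearly equal in depth, from 14992756 to 15143998 counts. Levels are given as normalized CPM, the read counts scaled to library size with TMM factors, and differences as the log2 fold change of the mutants against WT with its standard error (SE) and 95% CI (confidence interval). A gene was called at a Benjamini-Hochberg adjusted p under 0.05 from edgeR's quasi-likelihood test over all 14061 genes that passed a filter on low counts, and all 9 members passed it. The cells had the markers of ESCs, since 12 genes such as Pou5f1 and Nanog summed to 4130 to 4897 CPM per library. Markers of trophoblast stem cells and placenta were at mixed levels. Elf5 had 1 to 5 reads and Plac1 0 to 6 reads in any library, whereas Eomes stood at 12.5 and 13.3 CPM in WT, Cdh3 at 33.9 to 55.6 CPM and Peg10 at 375 to 466 CPM over the 6 libraries, so the list as a whole was not silent. Of the edited genes, H3f3a stood at 698 and 726 CPM in WT and at 560 to 635 CPM in the mutants. H3f3a was called lower in the mutants together (log2 fold change -0.23, adjusted p = 0.00016 by edgeR). It was also called lower in each clone (adjusted p = 0.00133 in Mut18 and 2.9e-05 in Mut43 by edgeR). H3f3b stood at 822 and 823 CPM in WT, at 774 and 799 CPM in Mut18 and at 900.2 and 889 CPM in Mut43, higher than WT in Mut43 (adjusted p = 0.0162) and different between the clones (adjusted p = 0.0402). These levels say nothing of the substitution itself. A further 10 markers of fibroblasts, the kind of cell used as feeders, summed to 289 CPM in the first WT library, 208 CPM in the second and 132 to 175 CPM in the mutants. Of the 9 fibroblast markers tested, 8 were called lower in the mutants, and without the first WT library 5 were. The part of these cells in the results below was not tested. In these bulk samples, fewer cells with a transcript and less of it per cell cannot be told apart.

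In the mutants as 1 group (n = 4) against WT (n = 2), 3 members rose, 2 fell and 4 did not pass the test. The 4 mutant libraries were 2 from each of 2 clones, set against 1 WT line, and the fit had no term for clone. Its p-values and CIs therefore do not cover the spread between clones. The substitution and other differences between these lines cannot be told apart. Tfap2c, Tead4 and Krt19 were higher and Cdx2 and Krt8 were lower, whereas Krt18, Gata3, Ascl2 and Krt7 were not called. None of the 9 moved by 2-fold. In those 5 the groups did not overlap, which held for 59.8% of all tested genes. Of all tested genes, 48.0% were called (23.5% higher and 24.5% lower), and 8.93% were called beyond 2-fold, so the share of members called lay close to that of genes in general. The median log2 fold change was 0.05 over the members and -0.004 over all tested genes.

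**Figure D1:**
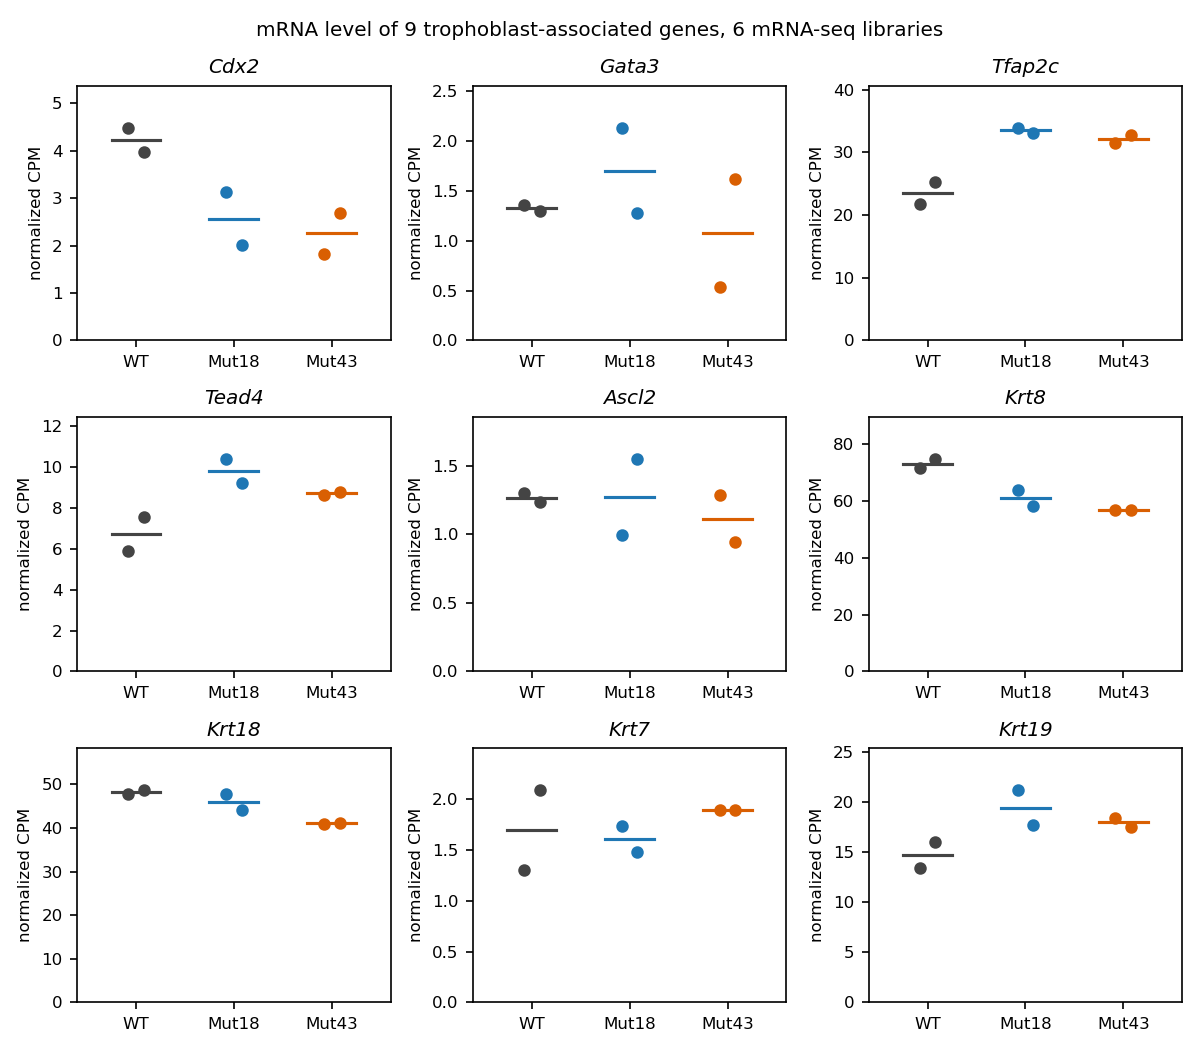
Normalized CPM of each member in the 6 mRNA-seq libraries, by line, with points for libraries and a line for the mean of 2. In the panels of Tfap2c, Tead4 and Krt19 all 4 mutant points lie above both WT points, in those of Cdx2 and Krt8 all lie below, and in the other 4 panels the groups overlap.

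Cdx2 encodes the homeodomain factor that commits cells to the trophoblast, and it lies on chromosome 5 (147300805 to 147307270, minus strand, GRCm38, as for all coordinates here). It had 69 and 61 reads in WT, while Mut18 had 47 and 30 and Mut43 had 27 and 40. These are 4.47 and 3.97 CPM in WT, while Mut18 had 3.12 and 2.02 CPM and Mut43 had 1.82 and 2.70 CPM. Every mutant library was below both WT libraries, although the mutant libraries themselves were widely spread. The mean fell from 4.22 ± 0.356 CPM (SD, n = 2) to 2.42 ± 0.603 CPM (SD, n = 4). The log2 fold change was -0.80 (SE 0.211, 95% CI -1.24 to -0.36, adjusted p = 0.00356 by edgeR), or 1.745-fold lower, and it was the largest change among the members.

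Tfap2c encodes the AP-2 gamma factor, which is used by the trophoblast and by germ cells, and it lies on chromosome 2 (172549593 to 172558622, plus strand). Its level was 21.8 and 25.3 CPM in WT, while Mut18 had 33.8 and 33.2 CPM and Mut43 had 31.5 and 32.8 CPM. The 4 mutant libraries lay within a narrow range above both WT libraries. Tfap2c rose by a log2 fold change of 0.48 (SE 0.0766, 95% CI 0.32 to 0.64, adjusted p = 2.98e-05 by edgeR), from 23.55 ± 2.5 to 32.82 ± 0.991 CPM. Tfap2c had the lowest p among the members. Across the 6 libraries the genes with the most similar pattern were Tst (Pearson r of log2 CPM 0.998, n = 6), B930041F14Rik (0.998) and Rpl22l1 (0.9977). These libraries form 2 genotypes, and 697 genes had an r above 0.95 with Tfap2c.

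Tead4 encodes the TEAD factor that is needed for the trophoblast, and it lies on chromosome 6 (128224288 to 128300823, minus strand). It stood at 5.90 and 7.55 CPM in WT, while Mut18 had 10.37 and 9.20 CPM and Mut43 had 8.65 and 8.76 CPM. All mutant libraries were higher than both WT libraries, and the WT libraries differed more from each other than those of Mut43. The log2 fold change was 0.46 (SE 0.132, 95% CI 0.18 to 0.73, adjusted p = 0.00684 by edgeR). Without the first WT library, which leaves 1 WT library, it was 0.29 and no longer called. The reason for this was not tested.

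Gata3 and Ascl2 were at the limit of what this depth can resolve. Gata3, a zinc finger factor that acts beside CDX2, had 21 and 20 reads in WT, while Mut18 had 32 and 19 and Mut43 had 8 and 24. The mutant libraries lay on both sides of WT, with a log2 fold change of 0.06 (95% CI -0.70 to 0.83, adjusted p = 0.899 by edgeR). Ascl2, a helix-loop-helix factor of the placenta, had 20 and 19 reads in WT, while Mut18 had 15 and 23 and Mut43 had 19 and 14 (log2 fold change -0.09, 95% CI -0.72 to 0.54, adjusted p = 0.832 by edgeR). The interval of Gata3 left out a 1.5-fold change in neither direction. That of Ascl2 left out a 1.5-fold rise but not a 1.5-fold fall. Gata3 (chromosome 2, 9857078 to 9890034, minus strand) shares exons with 9230102O04Rik on the same strand and with Gm13256 on the opposite strand, so its few reads could be counted otherwise.

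Krt8 was the most abundant member in reads, and with Krt18 it lies on chromosome 15, Krt8 at 101996698 to 102004482 on the minus strand and Krt18 at 102028180 to 102032027 on the plus strand. Krt8 stood at 71.7 and 74.7 CPM in WT, while Mut18 had 63.8 and 58.4 CPM and Mut43 had 56.8 and 56.9 CPM. Every mutant library was below WT, and the log2 fold change was small but tightly measured, -0.31 (SE 0.0546, 95% CI -0.43 to -0.20, adjusted p = 8.28e-05 by edgeR). Krt18, its filament partner, stood at 47.8 and 48.6 CPM in WT, while Mut18 had 47.8 and 44.1 CPM and Mut43 had 40.9 and 41.2 CPM. The first Mut18 library reached the level of WT, and the pooled log2 fold change of -0.15 (SE 0.0658, 95% CI -0.29 to -0.01) missed the threshold (adjusted p = 0.0703 by edgeR). With upper-quartile scaling, in the fit with 3 groups, or without the first Mut18 library, it passed (adjusted p = 0.0497, 0.0392 and 0.0166 by edgeR).

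The ratio of Krt8 to Krt18 reads was 1.5 and 1.54 in WT and 1.33 to 1.39 in the mutants, so it was lower in all 4 mutant libraries, and no test was run on it. Krt8 has a processed pseudogene on chromosome 7, Krt8-ps, not analysed here, and shares exon sequence with the lincRNA Gm36026 on the opposite strand. Reads of these could be assigned to Krt8 or lost from it.

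The other type II member, Krt7 (chromosome 15, 101411043 to 101430313, plus strand), had 20 and 32 reads in WT, while Mut18 had 26 and 22 and Mut43 had 28 and 28. The WT libraries enclosed all 4 mutant libraries, and the log2 fold change was 0.05 (95% CI -0.50 to 0.60, adjusted p = 0.896 by edgeR). The other type I member, Krt19 (chromosome 11, 100140810 to 100148665, minus strand), had 13.4 and 16.0 CPM in WT, while Mut18 had 21.1 and 17.7 CPM and Mut43 had 18.4 and 17.5 CPM. All mutant libraries exceeded WT, with a log2 fold change of 0.35 (SE 0.0989, 95% CI 0.14 to 0.55, adjusted p = 0.00631 by edgeR). Without the first WT library the change was 0.23 and the call was lost (adjusted p = 0.145).

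Krt19 lies on a chromosome whose genes were mostly higher in the mutants. The median log2 fold change of the 1182 tested genes of chromosome 11 was 0.39, and 83.6% of them were above 0, while the medians of the other autosomes lay between -0.084 and 0.067. Krt19 was 0.04 below the median of its chromosome on the log2 scale (-0.037), and 44.8% of the genes of chromosome 11 had a smaller log2 fold change. No other member lies on chromosome 11.

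**Figure D2:**
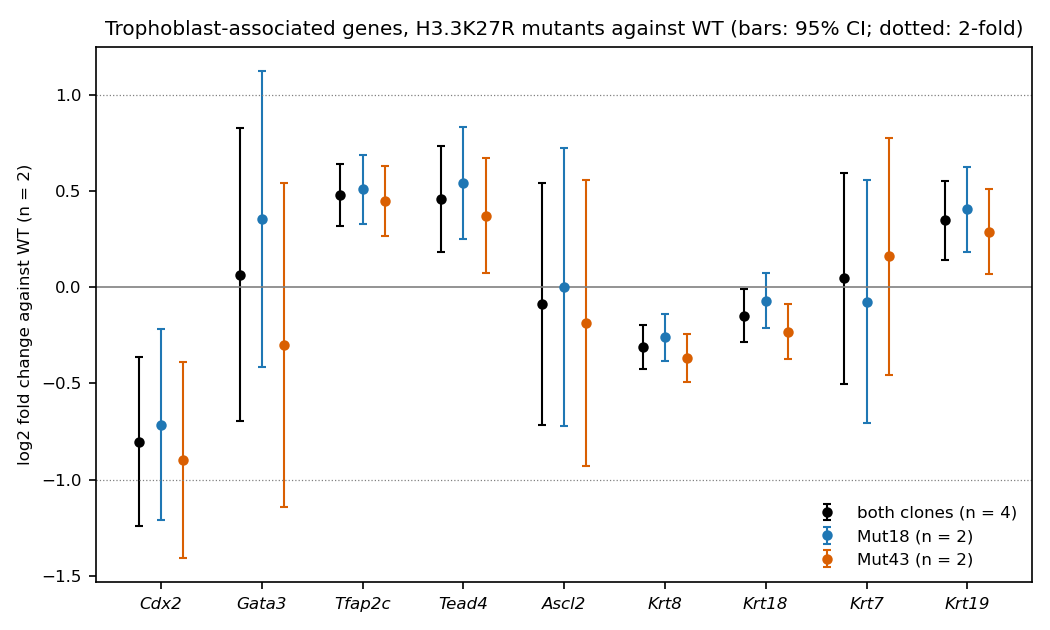
Log2 fold change of each member against WT (n = 2), for both clones together (n = 4) and for Mut18 and Mut43 alone (n = 2 each), with 95% CIs and dotted lines at 2-fold. Intervals are narrow for Krt8 and Krt18 and wide for Gata3, Ascl2 and Krt7, which had few reads, and no point lies beyond 2-fold.

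The clones were then compared with WT one by one. These comparisons share the WT libraries, so their values are given side by side and are not independent. In Mut18, where 41.3% of all tested genes were called (20.3% higher and 21.0% lower, 7.52% beyond 2-fold), Tfap2c (log2 fold change 0.51), Tead4 (0.54) and Krt19 (0.41) were higher and Cdx2 (-0.71) and Krt8 (-0.26) were lower. In Mut43, where 46.8% were called (22.9% higher and 23.9% lower, 10.3% beyond 2-fold), Tfap2c (0.45), Tead4 (0.37) and Krt19 (0.29) were higher and Cdx2 (-0.90), Krt8 (-0.37) and Krt18 (-0.23) were lower. Adjusted p-values from edgeR in the 3-group fit ranged from 3.34e-05 (Tfap2c) to 0.0193 (Cdx2) among the called members in Mut18 and from 1.8e-05 (Krt8) to 0.0365 (Tead4) in Mut43. With DESeq2, Cdx2 and Tead4 lost their calls in both clones (adjusted p from 0.0528 to 0.204), and so did Krt18 and Krt19 in Mut43, while Tfap2c and Krt8 passed in both clones.

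Tested against each other, Mut43 and Mut18 differed in none of the 9 members, with 0.327% of all tested genes called by edgeR. By unadjusted p under 0.05 there was 1 member, Krt18 (log2 fold change of Mut43 against Mut18 -0.16, 95% CI -0.31 to -0.02, unadjusted p = 0.0305, adjusted p = 0.52). DESeq2 called 0 members. The call of Krt18 in Mut43 and its absence in Mut18 therefore does not amount to a difference between the clones. The interval was widest for Gata3 (-1.46 to 0.15), which left out a 2-fold higher level in Mut43 than in Mut18 but not a 2-fold lower one.

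Set side by side per kilobase of merged exons, the members spanned a wide range of levels in WT, the highest standing 156 times above the lowest. Krt8 (37.4 CPM per kb) and Krt18 (33.5) led, followed by Krt19 (7.92), Tfap2c (6.40), Tead4 (1.869), Cdx2 (1.867), Ascl2 (0.781), Gata3 (0.335) and Krt7 (0.240). The median tested gene stood at 4.67 CPM per kb, so 4 members were above it and 5 were below. In WT the libraries of neighbours in this order did not overlap, except those of Tead4 (1.64 and 2.10) and Cdx2 (1.98 and 1.76). In the mutants Tead4 (2.40 to 2.88) and Cdx2 (0.807 to 1.38) were apart, whereas Krt8 (29.0 to 32.6) and Krt18 (28.5 to 33.3) overlapped. The lowest places depended on the gene model, since by the longest transcript Gata3 (0.414) and Krt7 (0.413) were level.

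Other genes of the trophoblast were counted from a list of 29, of which 25 had a row and 22 passed the filter on low counts. Of these 11 rose, 3 fell and 8 did not pass the test, with a median log2 fold change of 0.48 against -0.004 over all genes, and of all tested genes 23.5% were called higher and 24.5% lower, which is also the background for the lists that follow. The summed level of the 25 was 673 and 696 CPM in WT and 785 to 811 CPM in the mutants. The homeobox gene Rhox6, expressed in placenta, had 23 and 13 reads in WT and 70 to 85 reads in the mutants (log2 fold change 2.10, SE 0.231, adjusted p = 2.3e-07). Its neighbour Rhox9 (1.15, SE 0.232, adjusted p = 0.000343) and Hand1, a factor of trophoblast giant cells (1.33, SE 0.233, adjusted p = 7.87e-05), were higher too. Each of these 3 genes stayed under 6 CPM in every library.

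The 3 genes of this list that fell were Id2, Eomes and Ets2 (log2 fold change of Ets2 -0.27, adjusted p = 0.00604 by edgeR). Plet1 (1.35), Sox21 (0.65) and Cdh3 (0.59) were among the 11 that rose. The falls therefore do not stand for trophoblast stem cell genes as a whole. Id2, an inhibitor of helix-loop-helix factors, fell from 74.9 and 76.7 CPM to 31.9 to 41.9 CPM (log2 fold change -1.03, SE 0.0722, adjusted p = 4.41e-10). Eomes, a T-box factor, fell from 12.5 and 13.3 CPM to 6.65 to 9.30 CPM (-0.73, SE 0.121, adjusted p = 4.66e-05). Eomes was chosen after its values were seen, as were Ets2, Plet1, Sox21 and Cdh3. So were Fabp3, a lipid carrier that rose (0.84, SE 0.0591, adjusted p = 4.68e-10), and all genes of the next paragraph except Tead3. The list counts were 9 to 12 higher and 2 to 3 lower under all 15 alternatives.

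The genes around TEAD4 mostly moved the other way from Tead4. Of 20 genes of the Hippo pathway, its effectors, the other TEADs and their targets, 1 rose, 11 fell and 8 did not pass the test, with a median log2 fold change of -0.33. Tead3 fell from 12.97 and 13.93 CPM to 5.05 to 6.52 CPM (log2 fold change -1.28, SE 0.12, adjusted p = 2.76e-08). Tead2 (-0.63, SE 0.0453, adjusted p = 5.95e-10) and Tead1 (-0.34, SE 0.0436, adjusted p = 1.68e-06) fell too, so Tead4 was the TEAD gene that rose. The YAP and TAZ targets Ctgf (-0.56), Cyr61 (-0.67) and Amotl2 (-0.89) fell, but not every target did. Ankrd1 was not called (0.25, adjusted p = 0.18 by edgeR), with 4.60 and 4.62 CPM in WT and 5.12 to 5.91 CPM in the mutants. Wwtr1, which encodes TAZ (-0.56), and the kinase gene Lats2 (-0.58) fell, whereas Yap1 did not pass the test (-0.12, adjusted p = 0.0691 by edgeR). Nf2, an upstream activator of the pathway that lies on chromosome 11, was the 1 gene that rose (0.30). The count of lower genes was 10 to 12 under all 15 alternatives, each library left out included. Fibroblasts are known to express some of these targets too, and their markers were lower in the mutants by the values given above.

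Among 14 genes of epithelial junctions and their regulators 3 rose and 6 fell (median log2 fold change -0.21). The share that rose lay near the 23.5% of all tested genes, and the share that fell lay above their 24.5%. Cdh1, which encodes E-cadherin, fell by a little (-0.33, SE 0.0358, adjusted p = 1.69e-07 by edgeR), as did Cldn7 (-0.34). Ocln (-0.69), Cldn6 (-0.63), the desmosome gene Dsp (-0.55) and Grhl2 (-0.48) fell more. Pkp2, also a desmosome gene, rose (0.82, SE 0.0508, adjusted p = 6.53e-11 by edgeR), as did Ovol1 (0.93) and Jup (0.44). All these genes were named after their values were seen. Markers of other lineages were also counted. Of 8 tested primitive endoderm markers 2 rose and 3 fell (median -0.47), with Lama1 higher (1.29) and Foxa2 lower (11 and 15 reads in WT, 0 to 2 in the mutants). The share that rose was again near that of all genes, and only 1 rose with DESeq2 or without either WT library or either Mut43 library. Of 7 germ cell markers 5 rose and 1 fell (median 0.87), among them Dppa3 (1.85), Prdm14 (1.29) and Prdm1 (1.09), the last of which acts with TFAP2C in germ cell formation. Of 12 ESC markers 9 rose and 2 fell (median 0.21).

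**Figure D3:**
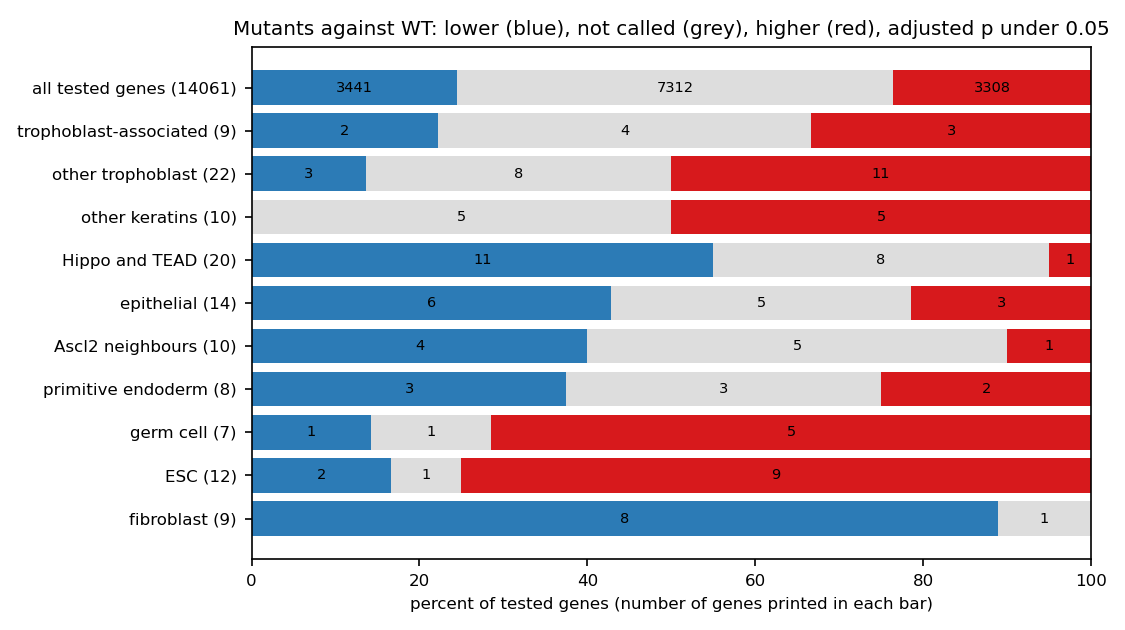
Share of the tested genes of each list that were called lower (blue), not called (grey) or called higher (red) in the mutants against WT, with gene numbers in the bars. The trophoblast-associated genes, with 3 of 9 higher and 2 of 9 lower, lie near the bar of all tested genes, while 11 of 20 Hippo and TEAD genes are lower and 5 of 7 germ cell genes are higher.

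The keratin members moved little beside their relatives. The table held 16 other keratin genes, of which 10 were tested; 5 rose and 0 fell by edgeR, and the 5 that rose were those with an unadjusted p under 0.05. DESeq2 and limma-voom also called 0 lower. Krt17, a keratin of stressed and embryonic epithelia, stood at 10.96 and 9.37 CPM in WT and at 39.8 to 42.1 CPM in the mutants, a log2 fold change of 2.01 (SE 0.0848, adjusted p = 2.71e-13). Krt42 rose from 7.13 and 9.11 to between 31.8 and 38.3 CPM (2.08, SE 0.108, adjusted p = 6.12e-12). In the mutants both were more abundant in reads than Krt19. At far lower levels Krt13 had 9 reads in each WT library and 16 to 27 in the mutants (adjusted p = 0.00231), and Krt9 had 1 read in each WT library and 5 to 11 in the mutants (adjusted p = 0.00179). Krt16, chosen after its values were seen, had 5 and 3 reads in WT and 7 to 15 in the mutants, and its call was lost with DESeq2 (adjusted p = 0.0736) and without the second WT library (adjusted p = 0.139).

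All 5 keratins that rose are type I genes on chromosome 11, in the cluster that holds Krt19, but so were 9 of the 10 tested, so that this location was nearly fixed by which genes could be tested. The other was Krt79 on chromosome 15 (log2 fold change 0.84, adjusted p = 0.211). Krt13 lies 19.2 kb from Krt19, Krt9 38.1 kb, Krt16 97.4 kb, Krt17 107.6 kb and Krt42 114.2 kb. Measured from the median of chromosome 11, the log2 fold change of Krt17 was 1.62 and that of Krt42 was 1.69, against -0.037 for Krt19, and 99.1% and 99.3% of the genes of chromosome 11 had smaller changes. Not every gene of the cluster was called. Krt14, 54.5 kb from Krt19, had a log2 fold change of 0.88 (adjusted p = 0.127), Krt10 of 0.16 and Krt20 of -0.05. Krt14, Krt16 and Krt17 are close in sequence, so reads could be split between them otherwise.

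**Figure D4:**
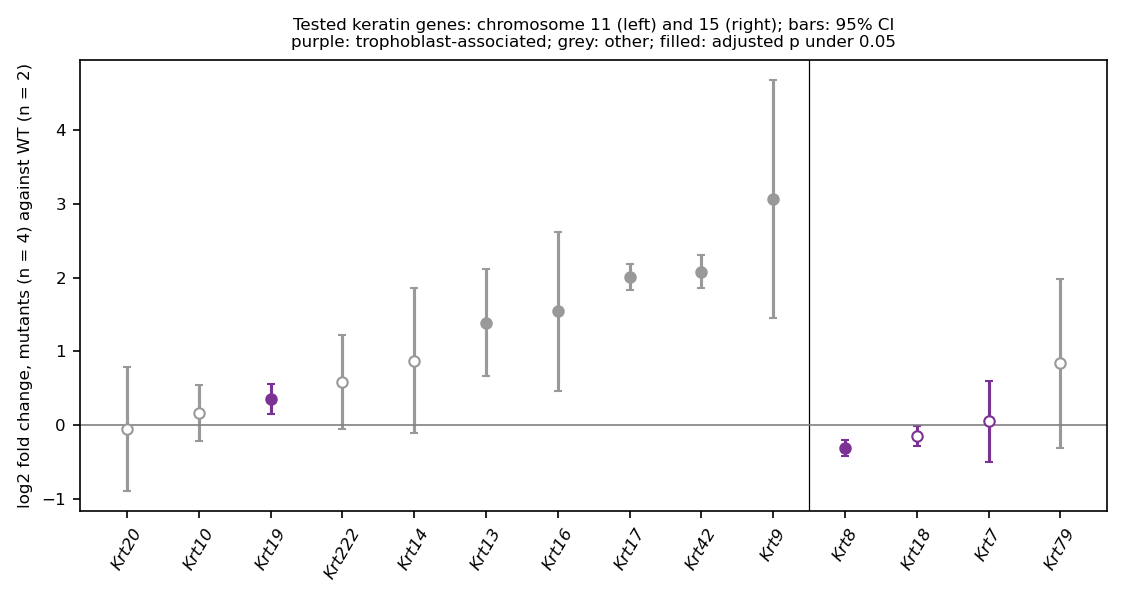
Log2 fold change (mutants, n = 4, against WT, n = 2) of the tested keratin genes on chromosome 11 (left) and chromosome 15 (right), members in purple and others in grey, filled where called, with 95% CIs. Krt17 and Krt42 are near 2, the members stay between -0.31 and 0.35, and the value of Krt9 rests on 1 read in each WT library.

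Ascl2 lies in an imprinted region of distal chromosome 7 (142966829 to 142969264, minus strand), where genes are expressed from 1 parental copy in the placenta or embryo. Of 10 tested genes of that region 1 rose and 4 fell (median log2 fold change -0.09), and the share called lay close to the 48.0% of all tested genes. By direction, the share that fell lay above the 24.5% of all tested genes and the share that rose below their 23.5%. The gene that rose was Phlda2 (0.23), which is also counted in the list of other trophoblast genes. H19, a growth-linked noncoding RNA, fell from 67.11 and 67.10 CPM to 19.95 to 28.4 CPM (-1.46, SE 0.0846, adjusted p = 2.93e-11), and Cdkn1c, a cell cycle inhibitor chosen after its values were seen, fell by 0.96 on the log2 scale (SE 0.0863, adjusted p = 1.59e-08). Igf2 had a pooled value near 0 (-0.02, adjusted p = 0.893) but moved in opposite directions in the clones, with 0.15 in Mut18 (adjusted p = 0.0144) and -0.20 in Mut43 (adjusted p = 0.00148). The clones differed from each other in Igf2 by -0.35 (Mut43 against Mut18, adjusted p = 0.000257), whereas Ascl2 was called in neither clone.

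ATAC-seq, which marks open chromatin by transposase cutting, was deposited as a list of peaks per library, with 63588 to 78536 peaks each. A promoter peak was taken as a peak that overlaps the 1000 bp on either side of an annotated transcription start site (TSS), and the one with the highest -log10 q was used. Of the 9 members 8 had a promoter peak in all 6 libraries, and 89.3% of 13404 tested genes with a placed start did so. The exception was Krt7, with a peak in the first WT library only. Krt7 was also the lowest member in mRNA per kb, while Gata3 and Ascl2, the next above it, had a peak in every library. In fold enrichment over background the promoter peaks of Tfap2c exceeded 1.5% to 4.5% of the peaks of their library, those of Cdx2 6.7% to 15.3% and those of Krt19 26.9% to 51.8%.

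The fold enrichment of the Cdx2 promoter peak was 4.37 and 4.54 in WT, while Mut18 had 5.20 and 4.69 and Mut43 had 5.23 and 4.77. In fold enrichment all mutant libraries were higher than WT, although Cdx2 mRNA was lower. By rank among the peaks of the same library the genotypes overlapped. The Cdx2 peak exceeded 11.3% and 6.7% of the peaks in WT and 7.9% to 15.3% in the mutants. Gata3 has 2 promoter regions, and the fold enrichment of the mutants was higher in each. At the upstream start it was 5.82 and 6.77 in WT and 6.96 to 8.83 in the mutants. At the inner start it was 4.18 and 5.51 in WT and 5.76 to 6.27 in the mutants. Across all genes 16.4% were higher in every mutant library than in WT and 4.62% were lower, with a median ratio of 1.046. At the other 6 members with peaks in all libraries the genotypes overlapped, at Tead4 for example with 5.67 and 5.22 in WT and 5.39 to 5.76 in the mutants. At Krt8 the peak with the highest -log10 q was the one at the start in 3 mutant libraries and one inside the gene in the other 3 libraries. Within each of these regions the genotypes overlapped too, with 3.89 and 4.22 in WT and 4.16 to 4.87 in the mutants at the start, and with 4.76 and 5.07 in WT and 4.71 to 7.26 in the mutants inside the gene. At Krt19 the peak used lies inside the gene, 589 bp from the nearest annotated start. A separate region over an annotated Krt19 start had a peak in both WT libraries (4.58 in each). Of the mutant libraries only the second of Mut43 had a peak there (4.79), and this pattern was not tested. With 2 WT and 4 mutant libraries the smallest 1-sided p of an exact permutation test is 0.0667, and the lists hold no read numbers, so these values are a description.

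**Figure D5:**
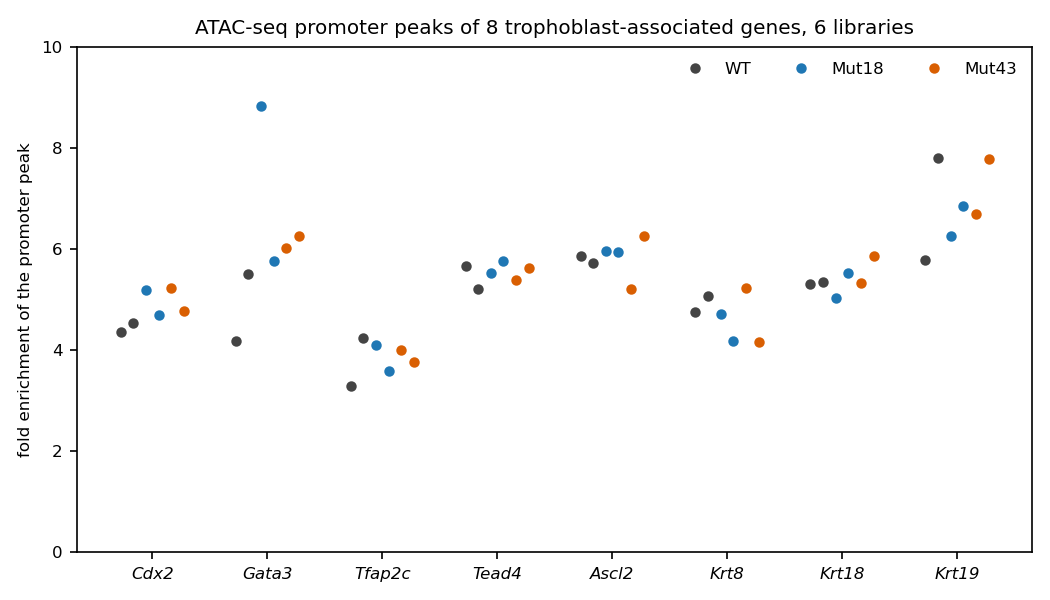
Fold enrichment over background of the promoter ATAC-seq peak with the highest -log10 q of 8 members in each of the 6 libraries (grey WT, blue Mut18, orange Mut43). The mutant points of Cdx2 and Gata3 lie above both WT points, and at the other 6 genes they overlap. For Gata3, Tfap2c, Ascl2 and Krt8 the peak plotted is not the same region in every library.

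The promoter sequence is shown for the member that fell most, Cdx2, and for the filament pair Krt8 and Krt18, whose start sites carry a peak in every library. Each runs 5′ to 3′ on the strand of the gene and ends at the base before the start site, taken from RefSeq promoter entries on GRCm38.p6, which were found for 6 of the 9 members. Cdx2 is chr5:147307271-147307499 (minus), Krt8 is chr15:102004483-102004592 (minus) and Krt18 is chr15:102027966-102028179 (plus). Motifs searched on both strands were GGAATG for TEAD factors, GCCNNNGGC for AP-2 factors, AGATAA for GATA factors, TTTATG for CDX factors, GGGCGG for Sp1 and TATAAA for the box of that name, and matches are in capitals.
Cdx2: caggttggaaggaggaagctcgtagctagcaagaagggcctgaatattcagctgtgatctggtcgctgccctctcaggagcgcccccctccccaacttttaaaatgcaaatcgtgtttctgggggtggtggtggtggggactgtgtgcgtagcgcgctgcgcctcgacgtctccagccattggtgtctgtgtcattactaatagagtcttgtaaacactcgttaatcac
Krt8: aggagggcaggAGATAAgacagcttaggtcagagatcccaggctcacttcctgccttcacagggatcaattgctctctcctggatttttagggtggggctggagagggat
Krt18: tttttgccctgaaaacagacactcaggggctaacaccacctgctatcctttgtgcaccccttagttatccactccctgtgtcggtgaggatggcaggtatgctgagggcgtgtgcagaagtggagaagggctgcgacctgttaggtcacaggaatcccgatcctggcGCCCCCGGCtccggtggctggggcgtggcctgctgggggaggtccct
The Cdx2 window held none of the 6 motifs. The Krt8 window held 1 GATA match, 99 bases before the start (-99), and 4.9% of 32851 promoter windows of that length hold one. The Krt18 window held 1 AP-2 match at -47, and 11.5% of windows of its length do. The windows compared are the first bases of each promoter entry, which begins 250 bases before its start site. They therefore end short of that site, unlike the windows shown, which end at an annotated start. A match is only a match of letters.

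Within 10 kb of the members the 6 lists gave 43 regions, 22 of which had a peak in all 6 libraries. There was 1 region with a peak in both WT libraries and in 0 of 4 mutant libraries, and there was none with a peak in all mutant libraries and no WT library. That WT region lies downstream of Tfap2c, the member with the clearest rise in mRNA, at chr2:172558903-172559151, between genes and 281 bp past the annotated end. Its fold enrichment was 3.96 and 4.76 in the WT libraries. Both values are low, so a peak close to the calling limit could be listed in one library and missed in another. Regions were not counted over the whole genome, so no background share stands beside these counts. The mutant pattern also asks for a peak in more libraries than the WT pattern, so the counts of the patterns are not alike. Another 4 regions, at Tfap2c, Tead4, Krt8 and Krt7, had a peak in the first WT library and in no other. Cdx2 had 5 of 7 regions in every library, with enrichment of 7.31 to 9.17 at the strongest, 7.18 kb past the gene's end, and Tead4 had 5 of 11, the strongest inside the gene with 7.49 to 10.41.

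The sequence of the region downstream of Tfap2c is given on the plus strand (GRCm38), since it was the 1 region near the members listed in both WT libraries and in no mutant library. Capitals mark AP-2 matches (GCCNNNGGC), the motif of the factor that Tfap2c encodes.
Tfap2c downstream region: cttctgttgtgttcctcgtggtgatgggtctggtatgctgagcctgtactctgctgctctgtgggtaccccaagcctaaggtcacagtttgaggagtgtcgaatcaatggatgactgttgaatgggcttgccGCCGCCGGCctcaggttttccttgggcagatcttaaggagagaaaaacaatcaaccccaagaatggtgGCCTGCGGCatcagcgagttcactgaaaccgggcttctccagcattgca
It held 2 AP-2 matches and none of the other 5 motifs. Of 78527 windows of the same length on the peaks of the first WT library, 15.6% held at least 1 AP-2 match.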

How the data were processed

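mRNA-seq (6 libraries) and ATAC-seq (6 libraries) of WT, Mut18 and Mut43 ESCs were used, grouped by the titles and genotypes per the labels. Its ChIP-seq samples were not analysed here. The authors deposited mRNA-seq as raw counts of reads on each gene, from paired-end reads on mm10 joined to the Drosophila genome dm6, and all 6 columns were matched to a sample. For ATAC-seq the authors deposited peaks called in each library, with fold enrichment (a ratio over background) and -log10 p and -log10 q values, each peak having a -log10 q of at least 6.0. The submitters' processing notes name STAR, DESeq2, Bowtie2 2.3.4.2, SAMtools, MACS2 and deepTools 3.3.0. The counting program, its strand setting and its annotation are not given in the sources used here. The peak lists give no depth.

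Testing was done with edgeR 4.0.16 under R 4.3.3 (expression filter at a minimum count of 10 and a minimum total of 15, TMM scaling, quasi-likelihood F-test, Benjamini-Hochberg adjustment over 14061 genes). WT (n = 2) was tested against both clones together (n = 4) in a fit with 2 groups, and each clone against WT and against the other in a fit with 3 groups. The 95% CIs were set by the SE and the residual degrees of freedom. Replicates of a line differed by more than counting error (chi-square per gene 1.78 to 3.19) and were kept as separate samples. The paper calls them biological duplicates, but no label says that they came from separate cultures. The p-values measure the spread between these libraries. On simulated counts (13863 genes, WT against mutants) 83 of 100 genes changed 2-fold and 76 of 100 changed by 0.5 on the log2 scale were recovered, with 9 false calls. Fewer of those changed by 0.5 were recovered in the other comparisons. They numbered 59 of 100 for Mut18 against WT, 57 for Mut43 against WT and 54 between the clones. The simulation changed a far smaller share of genes than the 48.0% called in the data for mutants against WT. It also held only the spread within lines, so these figures do not give the error rate of the real comparison.

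Coordinates came from GENCODE M21 on GRCm38, the build of mm10. Of the symbols 15616 matched directly and 478 by an older symbol, and 167 were not placed. Peaks were merged where they overlapped by at least 1 bp. Overlaps were computed in Python 3.11.15 with pandas 2.3.3.

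The members and lists were chosen with earlier results of these data known. Named genes are the members, the edited genes, up to 4 genes per list called beyond 2-fold, and the 3 genes most like the member with the lowest p. The alternatives were DESeq2 1.42.0, limma-voom (limma 3.58.1), RLE and upper-quartile scaling, TMM without chromosome 11, other filters and thresholds, a replicate block, each library left out, and other windows, overlaps and peak thresholds for ATAC-seq. Counts of lists under these alternatives were added after seeing the data.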

Additional observations from a re-analysis of the deposited data

Results flagged for a closer look

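In 17 sets of 4 mutant values (the mRNA level of 9 members and the promoter ATAC-seq enrichment of 8), 1 value stood apart from the other 3 by Dixon's criterion at the 95% level. It was the promoter peak of Gata3 in the first Mut18 library, with an enrichment of 8.83. The promoter peak with the highest -log10 q lies at the upstream start of Gata3 in that library, and that of the other 3 mutant libraries (5.76 to 6.27) at the inner start, so the set mixes peaks of 2 regions. At the upstream start alone the other mutant libraries had 6.96 to 7.19. Chance gives such a value in about 1 of 20 sets.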

How the results depend on the processing

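Only 2 libraries fix each WT level, and the members with about 20 reads per library (Gata3, Ascl2 and Krt7) had 95% CIs that reached 1.5-fold in at least 1 direction. For mutants against WT, the recomputed values of the members changed direction or side of the threshold in 10 of 132 cases. Those of the 34 other genes recomputed did so in 2 of 504 cases, both for Krt16. With a requirement of 2-fold, 0 members were called higher and 0 lower in each comparison. With an adjusted p under 0.01, 1 member was lower in Mut18 and 1 was higher in Mut43. With DESeq2, 3689 genes were called in Mut18, where 1 member was lower, and in Mut43 1 member was higher and 1 lower. Between the clones 25 genes were called with DESeq2 and 24 without a filter on low counts, against 46 by edgeR. DESeq2's adjusted p was missing for some members with low counts, which were left out of these comparisons, and with a minimum count of 50 Gata3, Ascl2 and Krt7 were not tested.

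Leaving out 1 library at a time, the members called higher in the mutants numbered 1 to 3 (1 without the first WT library) and those called lower 2 to 3. In Mut18 they numbered 1 to 3 higher and 1 to 2 lower, in Mut43 1 to 3 higher and 1 to 3 lower, and between the clones 8 to 70 genes were called, with 70 without the first WT library and 8 without the second Mut43 library. In each clone alone, leaving out a library leaves 1 sample in a group, which is assumed to vary like the rest. The log2 fold changes that turned sign were those of members not called. For mutants against WT these were Gata3 (-0.089 with limma-voom, -0.21 to 0.33 with a library left out), Ascl2 (-0.23 to 0.01) and Krt7 (-0.25 to 0.43). In Mut18 they were Ascl2 (-0.028 with limma-voom, -0.009 with upper-quartile scaling, -0.34 to 0.28 with a library left out), Krt7 (-0.37 to 0.31) and Gata3 (-0.06 to 0.67). In Mut43 they were Gata3 (-1.29 to 0.28), Ascl2 (-0.42 to 0.021) and Krt7 (-0.14 to 0.55). Between the clones they were Cdx2 (-0.49 to 0.17), Krt19 (-0.24 to 0.018) and Ascl2 (-0.47 to 0.16). In these cases the cause was not tested.

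The fibroblast markers called lower numbered 5 without the first WT library and 5 with DESeq2, against 8, and the other keratins called higher numbered 2 at a minimum count of 50, where fewer genes were tested. Replicate numbers did not pair the samples, since deviations of libraries with the same number correlated between -0.014 and 0.025. With the number as a replicate block 6604 genes were called instead of 6749, with 3 members higher and 2 lower as before. By the longest transcript, the highest member in WT stood 90.6 times above the lowest instead of 156. With a window of 50 kb, 53 regions near the members had a peak in every library instead of 22, as a wider window takes in more regions. The number of members with a promoter peak in every library was 7 to 8.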
